A study of Mus musculus with 6 samples.

Results

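The genes described here are the cyclins, the cyclin-dependent kinases (CDKs) and CDK-like kinases, their inhibitors and genes named after these. They also include the retinoblastoma pocket proteins and the E2F transcription factors. They were taken by symbol from the mRNA table of the retina libraries, in which every gene whose symbol begins as a member of one of these families was kept, whatever its values. The rule found 62 of 12145 gene symbols, with 76 of 15142 mRNA transcripts. Of 82 genes of these families in a list of roles the other 20 were not analysed here, and since the table holds transcripts that reached FPKM 1 in some library, a gene could enter it through 1 genotype. Of these symbols, 51 had 1 transcript, 8 had 2 and 3 had 3, and each symbol is represented below by its transcript with the highest mean level.

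RNA from whole retina of C57BL/6 mice (C57Bl/6J in the methods of the study) at postnatal day 21 (P21) was sequenced in 3 wild type (WT) libraries and in 3 libraries from *Nrl-/-* mice of the same strain, each library being a biological replicate of its own by the study's account. *Nrl-/-* mice lack the rod transcription factor NRL in every cell of the body. Levels are given as FPKM, fragments mapped to a transcript relative to its length and to the size of the library, so that genes of different length can be set side by side. The comparison asks which of these regulators differ between a rod-dominated retina and one in which photoreceptors that would be rods are cone-like. A gene is called higher or lower where the Benjamini-Hochberg adjusted p from limma, over all mRNA transcripts, was under 0.05, and log2 differences are those of log2(FPKM + 1), *Nrl-/-* minus WT.

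In a dividing cell, D cyclins with CDK4 and CDK6, then E and A cyclins with CDK2, phosphorylate the pocket proteins and release E2F factors, while the INK4 and Cip/Kip proteins hold the kinases back. Other members of the families do not drive the cell cycle: cyclins C, H, K, L and T and their kinases act on RNA polymerase II and on splicing, and CDK5 with its activators p35 and p39 works in neurons that no longer divide. Retinal neurons of the mouse have left the cell cycle by P21, so that in this tissue many of these genes are read out mostly in resting cells.

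The labels were checked on *Nrl* itself, whose more abundant transcript was at 552, 583 and 500 FPKM in WT and at 0.919, 0.879 and 0.959 FPKM in *Nrl-/-* retina. The 6 rod markers were all lower in *Nrl-/-* retina, with summed levels of 4988 to 5560 FPKM in WT and 50.3 to 56.0 FPKM in *Nrl-/-* libraries. The 8 cone markers were all higher, from 377 to 460 FPKM in WT up to 5595 to 5753 FPKM. Beside the marker counts that follow, 28.3% of all symbols were called higher and 10.2% lower in *Nrl-/-* retina. Of 8 bipolar cell markers 5 were higher and 1 lower, and of 9 Muller glia markers 4 were higher. Of 8 measured microglial markers 4 were higher, with summed microglial levels of 13.3 to 14.8 against 17.04 to 19.4 FPKM. None of the 5 amacrine cell and 7 pigment epithelium markers was called, although pigment epithelium markers summed to 11.98 to 84.4 FPKM in WT and 32.3 to 50.3 FPKM in *Nrl-/-* libraries, and of 8 endothelial markers 1 was higher and 2 were lower. Of 9 ganglion cell markers 1 was higher and 1 lower, of 3 horizontal cell and 4 pericyte markers 1 each was higher, of 5 markers of astrocytes and reactive glia 1 was lower, none of 5 erythrocyte markers was called, and the 1 measured lens marker was lower, at 0.659 to 3 FPKM in WT and 0.0281 to 0.149 FPKM in *Nrl-/-* libraries. In whole retina, fewer cells of a type and less RNA per cell cannot be told apart, and the part of these markers in any difference below was not tested. The female-specific RNA *Xist* was at 186 FPKM in WT replicate 2 and at 0.05 FPKM or less in the other 5 libraries, so results that turn on that library are given without it.

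Of the 62 genes, 18 were higher and 10 were lower in *Nrl-/-* retina and 34 were not called. Over all symbols tested, 28.3% were higher and 10.2% lower, and 38.6% were called in either direction, against 45.2% of these genes. The share called higher was thus close to the background, at 29.0%, and the share called lower was 16.1%. The median log2 difference was 0.14 over the 62 genes and 0.09 over all symbols. In 42 of the 62 genes the WT and *Nrl-/-* libraries did not overlap, where 51% of all symbols did not overlap. Only 6 genes passed both the adjusted p and 1.5-fold on the log2(FPKM + 1) scale, which is 9.7% of them against 9.5% of all symbols: *Cdkl1*, *Cdk6*, *Ccnjl* and *Cdk17* rose, and *Ccna2* and *Cdkn2c* fell. Among the 76 transcripts 22 were higher and 14 lower, against 26.7% and 10.1% of all transcripts, and 5 higher and 2 lower transcripts also passed 1.5-fold (5.71% and 3.59% of all, 9.3% in either direction). Scaling the libraries in 4 other ways, each of which lowered the *Nrl-/-* libraries slightly relative to WT, gave 13 higher and 16 lower genes, so that 44.8% of calls were higher in place of 64.3%, while for all transcripts the share moved from 72.7% to between 49.3% and 52.3%. The calls for *Ccnd1*, *Ccni*, *Cdk5*, *Cdk9* and *Rbl2* were lost under these scalings, and *Ccndbp1*, *Ccnj*, *Ccnk*, *Cdk16*, *Cdk5r1* and *E2f4*, which were not called in the main comparison, were then lower. Under all 4 scalings 23 of the 28 calls held, 13 higher and 10 lower, and 18 held under every alternative that tested the gene. Among these 18, *Cdk2ap1*, *Cdk5rap2*, *Cdkl2* and *Cdkn1c* did not reach FPKM 5 in any library and were not tested under that filter. An ordinary linear model in place of limma gave 17 higher and 7 lower genes, without *Ccnd1*, *Cdk5*, *Ccnd3*, *Ccnt1*, *Cdk13* and *E2f3* and with *Ccnl2* and *Cdk16*. Genes outside the 28 were called when 1 library was left out: *Ccndbp1* and *Ccnj* lower and *Cdk5r2*, *Cdk5rap3*, *Cdkn1b* and *Cdkn2d* higher without WT replicate 1 (adjusted p 0.0228 to 0.0421), *Ccnk* lower and *Cdk10* higher without WT replicate 2 (0.0181 and 0.0468), *Cdk5r1* and *E2f4* lower and *Ccne1*, *Ccng2*, *Ccny* and *Cdkn1a* higher without WT replicate 3 (0.0239 to 0.0497), and *Ccnd2*, *Cdk2ap2* and *Cdkn1a* higher without *Nrl-/-* replicate 3 (0.00687 to 0.0439).

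**Figure D1:**
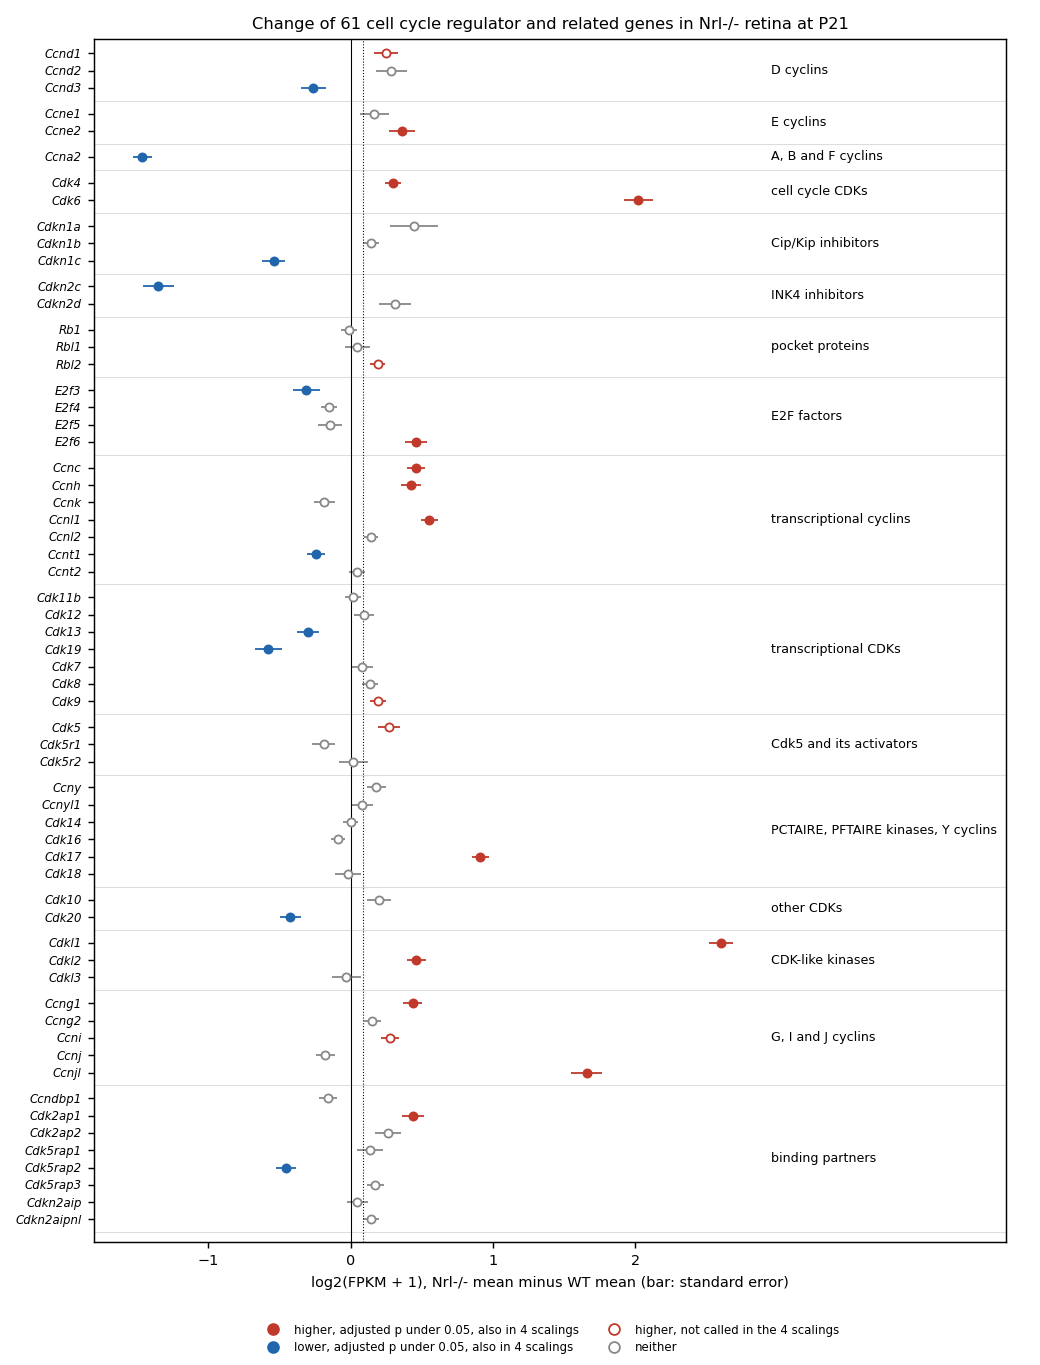
Difference in log2(FPKM + 1) between 3 *Nrl-/-* and 3 WT libraries for 61 of the 62 genes, ordered by role, with the standard error as a bar and the median of all symbols (0.09) as a dotted line. *Cdkl1*, *Cdk6*, *Ccnjl* and *Cdk17* lie farthest to the right and *Ccna2* and *Cdkn2c* farthest to the left, and most other genes lie within 0.6 of 0.

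The levels covered a wide range. The highest WT means were those of *Cdk2ap2*, a CDK2-associated protein, at 54.1 FPKM, *Ccndbp1*, a cyclin D1 binding protein, at 42.8 FPKM, and cyclin I, at 39.6 FPKM. The WT libraries of *Cdk2ap2* (48.2 to 57.5 FPKM) lay above those of *Ccndbp1* (40.1 to 44.9 FPKM), while *Ccndbp1* and *Ccni* (36.8 to 41.8 FPKM) overlapped and their order is not resolved. The lowest WT means were those of cyclin D2, at 0.654 FPKM, the INK4 inhibitor *Cdkn2d*, at 0.699 FPKM, and *Cdk6*, at 0.805 FPKM, with overlapping libraries. These levels are those of 1 transcript per gene in the authors' first workflow, and their order is tied to it. The study reports that several housekeeping genes with pseudogenes came out too low in that workflow. The authors' second workflow, based on TopHat, gave pooled WT values of 5.82 FPKM for *Cdkn2d* and 0.769 FPKM for *Cdk6*. By the order of means in *Nrl-/-* retina, *Cdkl1* moved from place 55 of 62 to place 14, *Ccnjl* from 53 to 30 and *Cdk6* from 60 to 36, while *Ccna2* moved from 33 to 56 and *Cdkn2c* from 40 to 59.

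**Figure D2:**
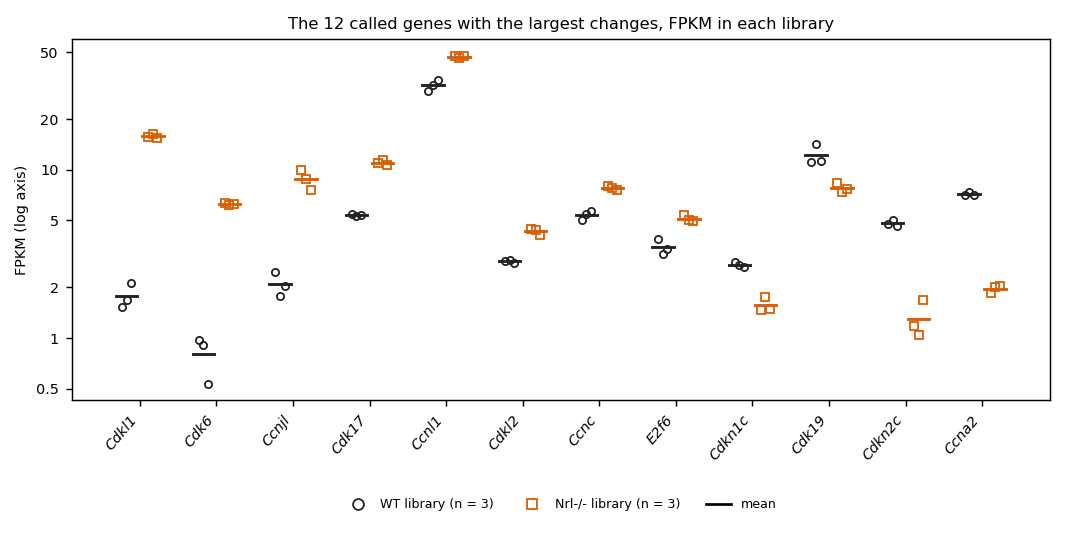
FPKM of the 12 called genes with the largest log2 differences in each of the 3 WT (circles) and 3 *Nrl-/-* (squares) libraries, on a log axis, with the group mean as a line. The libraries of the groups do not overlap in any of the 12 genes, which their choice by size of change favours. Groups did not overlap in 51% of all symbols. The WT replicate 3 value of *Cdk6* (0.537 FPKM) is the lowest shown.

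Of the G1 kinases, *Cdk6* rose and *Cdk4* rose less. *Cdk6*, a partner of the D cyclins, was at 0.972, 0.905 and 0.537 FPKM in WT and at 6.36, 6.21 and 6.26 FPKM in *Nrl-/-* libraries. All *Nrl-/-* values lay above all WT values, at a 7.80-fold ratio of means. The log2 difference was 2.02 (SE 0.10, adjusted p = 6.48e-07 in limma). The WT values were all under FPKM 1, so *Cdk6* passed the authors' filter only through its *Nrl-/-* libraries. Its ratio rests on these low WT values. *Cdk4*, the other D cyclin kinase, was at 12.7, 12.4 and 12.8 FPKM in WT and at 16.5, 15.3 and 15.6 FPKM in *Nrl-/-* retina, without overlap and with a log2 difference of 0.30 (SE 0.06, adjusted p = 0.00272). The level of *Cdk6* was thus 4.18% to 7.63% of that of *Cdk4* in the WT libraries and 38.5% to 40.5% in the *Nrl-/-* libraries. In the pooled second workflow *Cdk4*, summed over 9 transcripts, was at 29.2 FPKM in WT and 35.5 FPKM in *Nrl-/-* retina. *Cdk6*, with 1 transcript there, was at 0.769 and 5.93 FPKM, so the ratio is tied to the workflow. Exons of *Cdk4* share 604 bases (18.6% of its exonic bases) with *Tspan31* on the other strand, which was also higher (log2 difference 0.58), and reads from overlapping genes cannot be told apart in these libraries if strand was not kept. *Cdk1*, *Cdk2* and *Cdk3* were not analysed here.

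Of the 3 D cyclins 1 was higher, 1 was lower and 1 was not called, against 28.3% higher and 10.2% lower of all symbols. *Ccnd1*, the cyclin D that retinal progenitors use most, was at 4.70, 5.06 and 4.62 FPKM in WT and at 6.26, 6.31 and 5.11 FPKM in *Nrl-/-* retina. These groups were separated by a narrow gap, with a log2 difference of 0.25 (SE 0.08, adjusted p = 0.0472), and the call was lost when any library other than *Nrl-/-* replicate 3 was left out (adjusted p 0.0588 to 0.174). *Ccnd3* was at 8.99, 8.13 and 6.89 FPKM in WT and at 6.67, 6.52 and 6.21 FPKM in *Nrl-/-* retina, a log2 difference of -0.26 (SE 0.09, adjusted p = 0.0429), and its call was lost when any library other than WT replicate 3 was left out (adjusted p 0.0873 to 0.129). *Ccnd2* was close to the FPKM of 1 that the table asks of at least 1 library, at 0.526, 0.717 and 0.717 FPKM in WT and at 1.00, 1.25 and 0.815 FPKM in *Nrl-/-* retina (log2 difference 0.29, adjusted p = 0.0665). *Ccnd1* was 52.3% to 67.0% of the level of the most abundant *Ccnd3* transcript in WT libraries and 82.2% to 96.9% in *Nrl-/-* libraries. Other *Ccnd3* transcripts were at means of 3.23 and 2.17 FPKM in WT and 2.67 and 1.79 FPKM in *Nrl-/-* retina. They are left out of these ratios, which are thus not those of the whole gene. In exonic bases, 21.3% of *Ccnd1* overlaps *Oraov1* and 15.7% of *Ccnd3* overlaps *Bysl* on the other strand, and neither neighbour was called.

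Of the E and A cyclins, which act at the start of and during S phase, *Ccna2* fell, *Ccne2* rose and *Ccne1* was not called. *Ccna2*, cyclin A2, was at 7.11, 7.40 and 7.06 FPKM in WT and at 1.85, 2.01 and 2.05 FPKM in *Nrl-/-* retina. The groups were far apart, at a 3.65-fold lower mean with a log2 difference of -1.46 (SE 0.07, adjusted p = 3.31e-07). *Ccne2*, cyclin E2, was at 1.13, 1.43 and 1.40 FPKM in WT and at 1.99, 2.14 and 1.79 FPKM in *Nrl-/-* retina (log2 difference 0.36, SE 0.09, adjusted p = 0.0126), and lost its call without *Nrl-/-* replicate 2 (adjusted p = 0.0594). Of the exonic bases of *Ccne2*, 17.4% overlap *Ints8* on the other strand, which was not called (3.58 and 4.11 FPKM). *Ccne1*, cyclin E1, was at 1.23, 1.20 and 1.75 FPKM in WT and at 1.73, 1.603 and 1.69 FPKM in *Nrl-/-* retina, with overlapping groups (log2 difference 0.17, adjusted p = 0.239). In WT libraries *Ccna2* was at 506% to 630% of the level of the more abundant *Ccne2* transcript, and in *Nrl-/-* libraries at 92.9% to 115%. The other *Ccne2* transcript, at means of 0.625 FPKM in WT and 1.63 FPKM in *Nrl-/-* retina, is left out of these ratios. The 3' part of *Ccna2* shares 512 exonic bases (14.6%) with *Exosc9* on the other strand. *Exosc9*, a subunit of the RNA exosome, was at 8.92, 9.34 and 10.1 FPKM in WT and at 11.2, 10.9 and 11.6 FPKM in *Nrl-/-* retina, so that it moved the other way. In the second workflow of the authors, based on TopHat, the pooled FPKM of *Ccna2* summed over 3 transcripts was 10.99 in WT and 2.83 in *Nrl-/-* retina, given as the authors' values without replicates. *Ccna1*, *Ccnb1*, *Ccnb2*, *Ccnb3* and *Ccnf* were not analysed here.

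Because cyclin A2 is usually a marker of dividing cells, other genes of S phase and mitosis were set beside it from a list. Of 37 listed genes 13 were measured, of which 3 were higher, 3 lower and 7 not called, with a median log2 difference of 0.09, like that of all symbols. Over all symbols 28.3% were higher and 10.2% lower, the shares to set beside this and the later lists. *Ccna2* itself was 1 of the 3 lower genes. *Bub1b*, a mitotic checkpoint kinase, was at 2.71, 3.11 and 1.85 FPKM in WT and at 5.50, 5.06 and 8.51 FPKM in *Nrl-/-* retina (log2 difference 1.04, adjusted p = 0.00204). *Gmnn*, geminin, the inhibitor of replication licensing, rose from a mean of 0.721 to 2.03 FPKM, and *Cdt1*, the licensing factor that geminin binds, from 0.828 to 2.16 FPKM. The centromeric histone *Cenpa*, from 1.03 to 0.182 FPKM, and the mitotic kinase *Aurka*, from 0.966 to 0.555 FPKM, were lower, and both were named after their values were seen. *Pcna*, *Mcm2*, *Mcm4*, *Mcm6*, *Mcm7*, *Rrm1* and *Prc1* were not called. Members of this list thus lay on both sides, and no common direction was seen.

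Among the INK4 inhibitors, which bind CDK4 and CDK6, *Cdkn2c* fell. *Cdkn2c*, p18, was at 4.78, 5.06 and 4.66 FPKM in WT and at 1.17, 1.04 and 1.69 FPKM in *Nrl-/-* retina. No libraries overlapped, the mean was 3.71-fold lower, and the log2 difference was -1.35 (SE 0.11, adjusted p = 1.37e-05). *Cdkn2d*, p19, was at 0.879, 0.454 and 0.765 FPKM in WT and at 1.03, 1.17 and 1.10 FPKM in *Nrl-/-* retina (log2 difference 0.31, adjusted p = 0.0544). The pooled second workflow placed *Cdkn2c* at 4.52 FPKM in WT and 1.28 FPKM in *Nrl-/-* retina, and *Cdkn2d* at 5.82 and 7.25 FPKM, a higher level than in the first workflow. *Cdkn2a* and *Cdkn2b* were not analysed here.

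The Cip/Kip inhibitors, which bind a wider set of cyclin and CDK complexes, differed among themselves. *Cdkn1b*, p27, which is known to hold retinal cells out of the cycle, was the highest of the inhibitors, at 26.3, 24.8 and 25.2 FPKM in WT and at 28.2, 29.3 and 27.1 FPKM in *Nrl-/-* retina (log2 difference 0.14, adjusted p = 0.0688). *Cdkn1c*, p57, fell, from 2.84, 2.73 and 2.63 FPKM in WT to 1.46, 1.75 and 1.497 FPKM in *Nrl-/-* retina, without overlap (log2 difference -0.54, SE 0.08, adjusted p = 0.000734). *Cdkn1a*, p21, was at 1.58, 1.41 and 2.10 FPKM in WT and at 3.41, 2.97 and 1.77 FPKM in *Nrl-/-* retina. Its *Nrl-/-* replicate 3 lay inside the WT range and the gene was not called (log2 difference 0.44, SE 0.17, adjusted p = 0.0675), while without that library or without WT replicate 3, or with the FPKM of both transcripts summed, it was. The level of *Cdkn2c* relative to *Cdkn1b* was 18.2% to 20.4% in WT libraries and 3.56% to 6.26% in *Nrl-/-* libraries.

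Pocket proteins, the substrates of these kinases, stayed close to their WT levels. *Rb1* was at 10.6, 11.4 and 10.7 FPKM in WT and at 10.6, 11.1 and 10.7 FPKM in *Nrl-/-* retina, with overlapping groups (log2 difference -0.01, SE 0.06, adjusted p = 0.910). *Rbl1*, p107, was at 1.07, 1.19 and 1.04 FPKM in WT and at 1.07, 1.13 and 1.31 FPKM in *Nrl-/-* retina (log2 difference 0.05, adjusted p = 0.711). *Rbl2*, p130, the pocket protein typical of resting cells, was at 12.5 FPKM in each WT library and at 14.7, 14.3 and 14.3 FPKM in *Nrl-/-* retina (log2 difference 0.19, SE 0.05, adjusted p = 0.0179). The equal WT values of *Rbl2* come from log2 values rounded to 2 decimals, and its call was lost under the 4 scalings (adjusted p up to 0.282) and without any 1 of the *Nrl-/-* libraries (0.0501 to 0.0917). In exonic bases, 9.95% of *Rbl2* overlaps *Aktip* on the other strand, which was also higher (23.9 to 31.3 FPKM, log2 difference 0.38). *Rb1* was the only one of the 62 genes on chromosome 14, which carries *Nrl*, and lay 17.4 Mb from it.

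Of the E2F factors, 1 rose, 1 fell and 2 were not called. *E2f6*, a repressor that does not bind pocket proteins, was at 3.86, 3.17 and 3.38 FPKM in WT and at 5.36, 5.02 and 4.98 FPKM in *Nrl-/-* retina (log2 difference 0.46, SE 0.08, adjusted p = 0.00167). *E2f3*, an activator, was at 6.84, 6.89 and 7.22 FPKM in WT and at 5.96, 5.92 and 4.54 FPKM in *Nrl-/-* retina (log2 difference -0.31, SE 0.09, adjusted p = 0.0283). *Nrl-/-* replicate 3 of *E2f3* was lower than the other two, and the call was lost without it (adjusted p = 0.0688) or without any 1 of the WT libraries (0.0526 to 0.0666). *E2f4*, a repressor bound by p107 and p130, was at 15.1, 15 and 13.9 FPKM in WT and at 12.7, 13.3 and 13.2 FPKM in *Nrl-/-* retina (log2 difference -0.15, adjusted p = 0.0635). *E2f5* was at 6.11, 5.92 and 7.46 FPKM in WT and at 5.92, 5.82 and 5.50 FPKM in *Nrl-/-* retina, where both groups held the value 5.92 (log2 difference -0.15, adjusted p = 0.214). *E2f4* and *E2f5* both had lower means without passing the test. A non-coding *E2f6* transcript, tested among the non-coding RNAs, was at means of 3.48 and 4.21 FPKM (adjusted p = 0.176). *E2f1*, *E2f2*, *E2f7* and *E2f8* were not analysed here. Of 9 measured E2F partners and subunits of the DREAM complex, 3 were higher and none lower, against 28.3% and 10.2% of all symbols. Their median log2 difference was 0.12. *Tfdp1*, the dimerization partner of E2Fs, rose from 11.8 to 16.3 FPKM, *Lin52* from 8.01 to 10.8 FPKM and the histone chaperone *Rbbp4* from 20.2 to 25.1 FPKM.

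**Figure D3:**
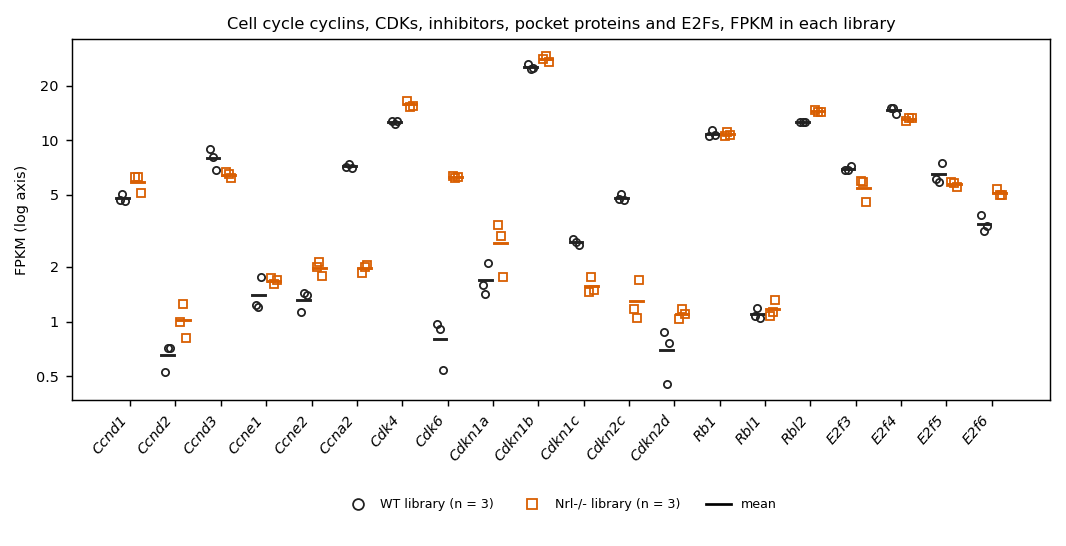
FPKM of 20 cell cycle cyclins, CDKs, inhibitors, pocket proteins and E2F factors in each WT (circles) and *Nrl-/-* (squares) library, on a log axis, with the group mean as a line. *Cdk6*, *Ccna2* and *Cdkn2c* show wide gaps between the groups, *Cdkn1c*, *E2f6* and *Ccne2* smaller ones, and *Rb1* and *Rbl1* overlap.

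E2F factors bind the promoters of many genes of this network, including some of their own. Of the 62 genes 46 had a promoter of 250 bases before to 50 after the start in RefSeq (GRCm38.p6), 53 promoters in all, and these were searched on both strands for TTTCCCGC, TTTCGCGC, TTTGCCGC and TTTGGCGC. A match was found in 2 of the 53 promoters (3.77%) and in 744 of 32851 promoters (2.26%) overall. The matches were in *E2f3* (chr13:29986014-29986313, minus strand, beginning 11 bases before the start) and in *Rbl1* (chr2:157204485-157204784, minus strand, beginning 18 bases before the start), of which *E2f3* was lower and *Rbl1* was not called. Both promoters are shown, 5′ to 3′ in the direction of the gene, with the match in capitals, which in *E2f3* is the reverse complement of the motif.
E2f3: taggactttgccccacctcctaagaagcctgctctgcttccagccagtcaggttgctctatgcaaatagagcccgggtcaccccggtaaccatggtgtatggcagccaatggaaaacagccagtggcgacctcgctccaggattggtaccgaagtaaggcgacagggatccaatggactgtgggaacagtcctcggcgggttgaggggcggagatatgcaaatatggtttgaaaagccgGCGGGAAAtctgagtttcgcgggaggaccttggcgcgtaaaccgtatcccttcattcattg
Rbl1: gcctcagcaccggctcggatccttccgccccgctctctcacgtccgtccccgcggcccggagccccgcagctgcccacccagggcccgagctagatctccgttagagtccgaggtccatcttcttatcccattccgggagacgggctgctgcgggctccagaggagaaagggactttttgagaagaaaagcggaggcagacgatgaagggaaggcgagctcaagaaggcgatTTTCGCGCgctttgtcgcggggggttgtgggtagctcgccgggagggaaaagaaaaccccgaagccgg

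The half-site TGCTGA of NRL and its MAF relatives, a search chosen after the expression values were seen, was found on either strand in 12 of the 53 promoters (22.6%) and in 6401 of 32851 promoters (19.5%). By gene, it was in 3 of the 7 genes called lower that had a promoter (*Ccnd3*, *Cdk20* and *Cdkn2c*). It was in 2 of the 13 called higher and in 6 of the 26 not called. *Ccnd3* and *Cdkn2c* each had another promoter without the half-site. A gene with more promoters has more chances of a match. The share by gene over all genes was not computed, so nothing is drawn from these counts. A match is a description of letters only. The *Cdkn2c* promoter that holds the half-site (chr4:109665323-109665622, minus strand, beginning after the start) is shown because *Cdkn2c* had the largest fall among genes with a promoter here, with the half-site in capitals.
Cdkn2c: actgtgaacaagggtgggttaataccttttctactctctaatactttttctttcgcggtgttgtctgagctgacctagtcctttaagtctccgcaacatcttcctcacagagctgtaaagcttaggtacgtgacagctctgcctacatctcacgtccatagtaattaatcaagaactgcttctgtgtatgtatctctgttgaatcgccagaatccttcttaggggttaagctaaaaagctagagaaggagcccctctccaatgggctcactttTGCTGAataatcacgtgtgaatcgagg

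The cyclins and CDKs of transcription and splicing had higher levels than most of the cell cycle genes and changed in both directions. Of 7 such cyclins 3 were higher and 1 lower, and of 7 such kinases 1 was higher and 2 lower. The shares of all symbols were 28.3% higher and 10.2% lower. *Ccnl1*, cyclin L1, which acts with CDK11 in splicing, was at 29.3, 31.9 and 34.0 FPKM in WT and at 47.5, 46.2 and 47.2 FPKM in *Nrl-/-* retina. Its groups were well apart, with a log2 difference of 0.55 (SE 0.06, adjusted p = 0.00015), whereas its relative *Ccnl2* was at a mean of 29.6 FPKM in WT and 32.7 FPKM in *Nrl-/-* retina (log2 difference 0.14, adjusted p = 0.0536). *Cdk11b*, the kinase partner, was at 22.4, 19.97 and 21.9 FPKM in WT and at 22.1, 21.5 and 21.5 FPKM in *Nrl-/-* retina, with overlapping groups.

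In the kinase module of Mediator, which couples CDK8 or CDK19 to cyclin C, the members did not move together. *Cdk19* was at 11.1, 14.1 and 11.3 FPKM in WT and at 8.38, 7.34 and 7.69 FPKM in *Nrl-/-* retina, without overlap and with 1 WT library, replicate 2, above the others (log2 difference -0.58, SE 0.09, adjusted p = 0.0013). Its paralog *Cdk8* was at a mean of 10.6 FPKM in WT and 11.7 FPKM in *Nrl-/-* retina (log2 difference 0.14, adjusted p = 0.0938). This more abundant *Cdk19* transcript was at 105% to 131% of the level of *Cdk8* in WT libraries and at 60.3% to 72.6% in *Nrl-/-* libraries. The ratios leave out the other *Cdk19* transcript, at means of 9.82 FPKM in WT and 6.31 FPKM in *Nrl-/-* retina. Summed over transcripts in the pooled second workflow, *Cdk19* was above *Cdk8* in both genotypes. The values were 22.2 against 12.6 FPKM in WT and 14.6 against 13.3 FPKM in *Nrl-/-* retina. *Ccnc*, cyclin C, rose, from 5.02, 5.50 and 5.73 FPKM in WT to 8.001, 7.82 and 7.63 FPKM in *Nrl-/-* retina (log2 difference 0.46, SE 0.07, adjusted p = 0.000635). Of the exonic bases of *Ccnc*, 5.4% overlap *2610029I01Rik* on the other strand, which was also higher (log2 difference 0.37). *Med13l*, a further subunit of the module, fell from a mean of 22.2 to 8.40 FPKM (log2 difference -1.31, adjusted p = 1.13e-05), while *Med12*, *Med12l* and *Med13* were not called. Of the 11 listed partners of this module and of P-TEFb, 1 was higher, 2 were lower and 8 were not called, with a median log2 difference of 0.12.

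P-TEFb, the kinase that releases paused RNA polymerase II, is CDK9 with cyclin T1 or T2. *Ccnt1* fell, from a mean of 16.4 to 13.7 FPKM (log2 difference -0.24, SE 0.06, adjusted p = 0.0162), and lost its call without *Nrl-/-* replicate 3 (adjusted p = 0.0598) and in the ordinary linear model (0.0517). *Cdk9* was at 7.23 FPKM in WT and 8.38 FPKM in *Nrl-/-* retina, and its call (log2 difference 0.19, adjusted p = 0.0267) was lost under the 4 scalings, without WT replicate 2 and without any 1 of the *Nrl-/-* libraries (adjusted p 0.0652 to 0.102), and with the replicate number as a block (0.0556). *Ccnt2* was at 18.8 and 19.3 FPKM. The scaffold proteins of the super elongation complex, *Aff1* (16.2 to 12.8 FPKM) and *Aff4* (34.3 to 41.2 FPKM), were called in opposite directions. *Ccnh*, the cyclin of the CDK-activating kinase, rose from 10.8 to 14.8 FPKM (log2 difference 0.42, adjusted p = 0.00132), while its kinase *Cdk7* was at 5.71 and 6.10 FPKM (adjusted p = 0.403). *Cdk13*, which with cyclin K acts in elongation, fell from 5.32 to 4.14 FPKM (log2 difference -0.30, adjusted p = 0.0154), and lost its call without *Nrl-/-* replicate 2 (adjusted p = 0.0675) and in the ordinary linear model (0.0549). Cyclin K itself was at 10.99 and 9.53 FPKM and was called lower only without WT replicate 2 or under the 4 scalings (log2 difference -0.26 and adjusted p = 0.0181 without that library).

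Of the 14 pairs of transcripts within a gene, 1 differed in its change between the genotypes, where 1.94% of all 2994 pairs did. The *Cdk12* transcript NM_026952 was at 3.20, 2.63 and 3.26 FPKM in WT and at 1.69, 1.69 and 1.68 FPKM in *Nrl-/-* retina (log2 difference -0.58, adjusted p = 0.000712). The transcript NM_001109628 was at 2.43, 2.39 and 2.48 FPKM in WT and at 2.73, 2.76 and 2.53 FPKM in *Nrl-/-* retina (log2 difference 0.10, adjusted p = 0.318). The difference between the changes was -0.68 (SE 0.06, adjusted p = 0.0248), and it was not called without WT replicate 1 (0.0526), without WT replicate 3 (0.0622) or without any 1 of the *Nrl-/-* libraries (0.0858 to 0.114). With all *Cdk12* transcripts summed, the log2 difference of the gene was -0.16 and not 0.10. The lower transcript of *Cdkn1a*, NM_001111099, rose from a mean of 0.299 to 0.857 FPKM and the second *Ccne2* transcript, NM_001037134, from 0.625 to 1.63 FPKM (log2 difference 0.70), and neither differed in its change from the more abundant transcript of its gene. The second transcript of *Ccnc* was at 3.37 and 3.71 FPKM and was not called.

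**Figure D4:**
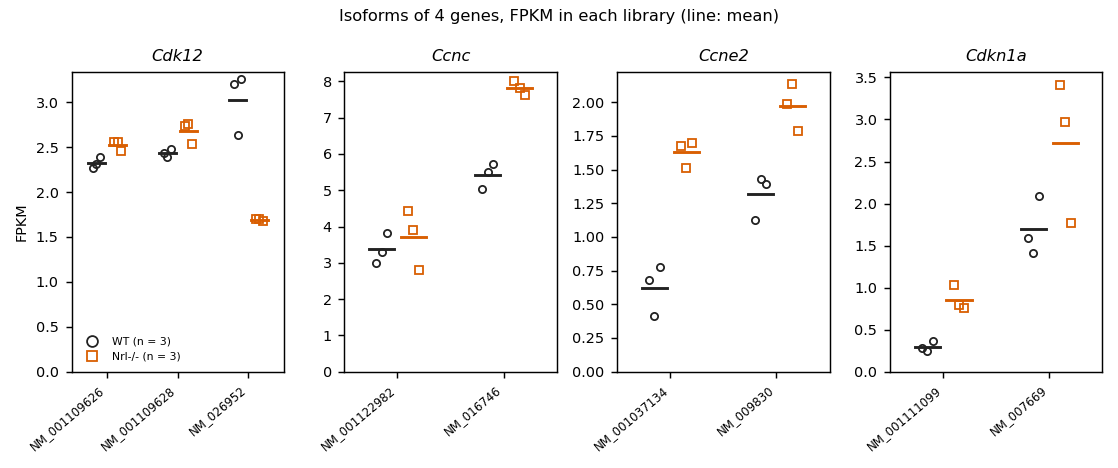
FPKM of the transcripts of *Cdk12*, *Ccnc*, *Ccne2* and *Cdkn1a* in each WT (circles) and *Nrl-/-* (squares) library, with the group mean as a line and each axis from 0. The *Cdk12* transcript NM_026952 is lower in *Nrl-/-* retina, at 1.68 to 1.69 FPKM against 2.63 to 3.26 FPKM, while the other *Cdk12* transcripts are slightly higher.

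The kinases of neurons and of other resting cells changed in some members only. *Cdk17*, a PCTAIRE kinase, was at 5.50, 5.32 and 5.36 FPKM in WT and at 10.96, 11.5 and 10.6 FPKM in *Nrl-/-* retina, a 2.04-fold ratio without overlap (log2 difference 0.91, SE 0.06, adjusted p = 3.53e-06). Its exons share 316 bases (5.80%) with *Elk3* on the other strand, which rose from 1.43 to 6.70 FPKM (log2 difference 1.66). The relatives *Cdk16*, at 37.1, 36.3 and 35.5 FPKM in WT and 34.0, 34.3 and 33.8 FPKM in *Nrl-/-* retina, *Cdk14*, at means of 23.9 FPKM in both groups, and *Cdk18*, at 2.05 and 2.01 FPKM, were not called. The cyclin *Ccny*, which activates CDK14 and CDK16, was at 12.6 and 14.4 FPKM (adjusted p = 0.0630), and its relative *Ccnyl1* at 2.71 and 2.92 FPKM. *Cdk5* was at 12.1, 13.5 and 11.3 FPKM in WT and at 15.8, 13.9 and 15.2 FPKM in *Nrl-/-* retina, with a log2 difference of 0.27 (SE 0.08, adjusted p = 0.0237) that was not called under the 4 scalings, nor without replicate 1 or 3 of either group (adjusted p 0.0540 to 0.101).

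The activator *Cdk5r2*, p39, had the highest level of its group, at 44.3, 33.5 and 32.6 FPKM in WT and at 37.9, 36.5 and 36.5 FPKM in *Nrl-/-* retina, where the groups overlapped, and *Cdk5r1*, p35, was at 16.4 and 14.2 FPKM (adjusted p = 0.105). Of 9 measured substrates and partners of CDK5, 1 was higher, 1 lower and 7 not called: *Ppp1r1b*, the dopamine-regulated phosphatase inhibitor DARPP-32, fell from 3.87 to 1.68 FPKM and syntaxin 1a, a protein of the synaptic vesicle fusion machinery, rose from 3.69 to 4.63 FPKM.

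The largest change of all 62 genes was in the CDK-like kinases, which resemble CDKs in sequence. *Cdkl1* was at 1.53, 1.69 and 2.12 FPKM in WT and at 15.6, 16.4 and 15.4 FPKM in *Nrl-/-* retina. No library came near the other group, and the mean was 8.87-fold higher with a log2 difference of 2.60 (SE 0.08, adjusted p = 3.67e-08). *Cdkl2* rose too, from 2.86, 2.92 and 2.78 FPKM to 4.43, 4.39 and 4.10 FPKM (log2 difference 0.46, SE 0.07, adjusted p = 0.000695). *Cdkl3*, at 2.42 and 2.34 FPKM, overlapped between groups. In the pooled second workflow *Cdkl1* was at 2.06 FPKM in WT and 9.66 FPKM in *Nrl-/-* retina, whereas the summed FPKM of the 5 *Cdkl2* transcripts was 12.4 and 12.2, 1 of them being listed at 8.57e-09 FPKM in WT and 6.84 FPKM in *Nrl-/-* retina. *Cdk20*, a kinase linked to primary cilia, fell from 7.63, 8.92 and 8.06 FPKM to 6.16, 5.87 and 5.54 FPKM (log2 difference -0.42, SE 0.07, adjusted p = 0.0018). *Cdk10* was at 4.40 and 5.20 FPKM (adjusted p = 0.0973, and 0.0468 without WT replicate 2). The other *Cdk10* transcript, NM_194446, was called higher (3.92 to 4.88 FPKM, log2 difference 0.26, adjusted p = 0.0297). With the FPKM of both transcripts summed, *Cdk10* was called higher as well (log2 difference 0.25, adjusted p = 0.0200). *Cdk15* and *Cdkl4* were not analysed here.

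Of the atypical G, I and J cyclins 3 of 5 were higher, where 28.3% of all symbols were. *Ccnjl*, a cyclin J-like gene of little known function, was at 2.46, 1.79 and 2.03 FPKM in WT and at 9.93, 8.78 and 7.57 FPKM in *Nrl-/-* retina, a 4.19-fold ratio without overlap (log2 difference 1.66, SE 0.11, adjusted p = 3.89e-06). Its paralog *Ccnj* had a lower mean, at 7.70 and 6.70 FPKM (log2 difference -0.18, adjusted p = 0.0645). *Ccng1*, cyclin G1, a p53 target, rose from 23.3 to 31.8 FPKM (log2 difference 0.44, adjusted p = 0.00103), and *Ccng2* was at 11.7 and 13.2 FPKM (adjusted p = 0.0790). *Ccni*, the highest of these, was at 40.1, 41.8 and 36.8 FPKM in WT and at 49.2, 49.2 and 45.9 FPKM in *Nrl-/-* retina, a difference (log2 0.28, adjusted p = 0.0079) not called under the 4 scalings.

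Of 17 measured genes of the p53 list, which also holds *Ccng1* and *Cdkn1a*, 6 were higher, 1 lower and 10 not called. The median log2 difference was 0.06, and over all symbols 28.3% were higher and 10.2% lower. *Btg2*, an antiproliferative gene, rose from 30.3 to 55.5 FPKM, *Trp53* itself from 3.30 to 5.88 FPKM, and *Gadd45a*, a stress gene that acts on growth arrest, fell from 16.7 to 4.69 FPKM (log2 difference -1.63).

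Another 8 of the genes were included for being named after a member, which does not say that they act on its complexes. *Cdk2ap1*, a CDK2-associated protein, rose from 2.14 to 3.26 FPKM (log2 difference 0.44, adjusted p = 0.00195), while *Cdk2ap2*, the most abundant of all, was at 56.7, 57.5 and 48.2 FPKM in WT and at 68.6, 69.0 and 57.5 FPKM in *Nrl-/-* retina, where the groups touched (adjusted p = 0.0508). *Cdk5rap2*, a centrosomal protein, fell from 3.81 to 2.52 FPKM (log2 difference -0.45, adjusted p = 0.00107), and *Cdk5rap1*, at 2.75 and 3.11 FPKM, and *Cdk5rap3*, at 10.1 and 11.5 FPKM, were not called. *Ccndbp1*, at 42.8 and 38.2 FPKM, *Cdkn2aip*, at 9.34 and 9.66 FPKM, and *Cdkn2aipnl*, at 10.3 and 11.5 FPKM, were not called either. Of 7 measured enzymes that activate or inactivate CDKs, 3 were higher and 1 lower, against 28.3% and 10.2% of all symbols. Besides *Ccnh*, the inhibitory kinase *Wee1* rose from 1.15 to 1.62 FPKM and the phosphatase *Cdc25a* from 0.600 to 0.949 FPKM. *Pkmyt1*, which also inhibits CDK1, fell from 2.23 to 1.19 FPKM. Of 20 measured genes that turn over cyclins and inhibitors, 7 were higher and 1 lower (28.3% and 10.2% of all symbols), with a median log2 difference of 0.15. Among these, *Ambra1*, which targets D cyclins for degradation, rose from 7.36 to 11.1 FPKM, the ubiquitin ligase subunit *Skp1a* from 62.2 to 82.5 FPKM and *Fbxw7*, a receptor for cyclin E, from 7.46 to 9.41 FPKM, while *Fbxo5*, an inhibitor of the anaphase-promoting complex, fell from 1.29 to 0.832 FPKM.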

How the data were processed

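Total RNA from whole retina was made into TruSeq libraries by the authors, sequenced as single reads, aligned with BWA to mm9 and quantified in Partek at the transcript level, per the study's methods. The deposited per-library values are log2(FPKM + 1), rounded by the authors to 2 decimals, and the table was limited by the authors to transcripts that reached FPKM 1 in some library. FPKM is normalized for length and library size. The files used hold no read counts, so the depth behind each value is unknown here and no counting interval is given. The authors' TopHat and Cufflinks table holds 1 pooled FPKM per genotype; its values are printed as theirs, and columns of fold changes and p-values of the authors' own comparisons, and pseudogene tables, were not used. FPKM values here were recovered from the deposited log2 values.

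Genotype was fitted with limma 3.58.1 in R 4.3.3 (variance trend on the mean, no covariates), with Benjamini-Hochberg adjustment over all 15142 mRNA transcripts, after tests on simulated data. Isoform differences were fitted to within-library differences. Tables and plots used Python 3.11.15, numpy 2.4.6, pandas 2.3.3 and matplotlib 3.10.9. Exon overlaps are those of an annotation of NCBIM37, the build of the files. Alternatives were pseudocounts of 0.5 and 0.1, filters of FPKM 1 in 3 libraries and 5 in 1 library, other linear models, 4 scalings (median of ratios, upper quartile, quantile, and leaving out the 25 highest transcripts), a replicate block, leaving out each library, and summing FPKM per symbol. The genes, gene lists and tests were chosen with earlier results of these data known. Values in every library are given for the 12 called genes with the largest changes, the most abundant gene of each role, D cyclins, inhibitors, pocket proteins, E2F factors and genes whose isoforms differed, and up to 4 called genes of each pathway list are named. Also given by library are Cdk4, Ccne1, Ccne2, Cdk5, Bub1b and Exosc9. The values of 1 of the 62 genes, which is in the counts, are not reported here.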

Additional observations from a re-analysis of the deposited data

How the results depend on the processing

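Against 18 higher and 10 lower genes, summing FPKM per symbol gave 24 higher and 10 lower, an ordinary linear model 17 and 7, and the 4 scalings 13 and 16 each. With summing, the fit and its adjustment ran over 12145 symbols in place of 15142 transcripts. *Cdk2ap2*, *Cdk5rap3*, *Cdkn2d* and *Ccnl2*, each with 1 transcript, gained calls at unchanged log2 differences. *Cdkn1a* and *Cdk10* gained calls at larger log2 differences. For transcripts, scaling without the 25 highest transcripts gave 22 lower transcripts in place of 14, and transcripts past 1.5-fold were 11 under each scaling, 13 with a pseudocount of 0.5 and 15 with 0.1, against 7. Without single libraries, higher genes were 14 to 20, lower genes 7 to 11, higher transcripts 17 to 24, lower transcripts 11 to 17 and transcripts past 1.5-fold 8 to 11 (11 without WT replicate 3). Without WT replicate 2, there were 17 higher and 9 lower genes. The labels do not say whether replicate numbers pair the libraries. Deviations of same-numbered libraries had correlations of 0.03, 0.02 and 0.12. These cannot decide it, since libraries of different numbers were not compared. The replicate block also gave 18 higher and 10 lower genes, although *Cdk9* lost its call (adjusted p = 0.0556 in limma) and *Cdk2ap2* gained one (0.00814). The *Cdk12* isoform call (1 pair) was 0 under the replicate block and 0 to 1 without single libraries.

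Some uncalled log2 differences changed sign. Under median-of-ratios, quantile, upper-quartile and 25-highest scaling they were, in this order, -0.058, -0.081, -0.058 and -0.071 for *Ccnt2*, -0.086, -0.112, -0.086 and -0.098 for *Cdk11b*, -0.084, -0.131, -0.084 and -0.097 for *Cdk5r2*, and -0.050, -0.036, -0.050 and -0.062 for *Cdkn2aip*. Under median-of-ratios, upper-quartile and 25-highest scaling they were -0.0082, -0.0081 and -0.019 for *Cdk7* and -0.0102, -0.0102 and -0.017 for *Rbl1*, and for *Ccnyl1* -0.0084 under the last. *Cdk12* was at -0.16 with summed FPKM. Without single libraries the values spanned -0.032 to 0.048 for *Cdk11b*, -0.068 to 0.057 for *Cdk18*, -0.058 to 0.157 for *Cdk5r2*, -0.123 to 0.047 for *Cdkl3* and -0.030 to 0.020 for *Rb1*. The cause of these shifts was not tested. Low genes, at FPKM under 1, are limited by rounding and by the unknown depth.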
